A study of Mus musculus with 8 samples.

Results

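The class II region of the mouse major histocompatibility complex (MHC) on chromosome 17 was examined in bone marrow-derived macrophages of C57BL/6 mice, in 4 libraries made after treatment with the cytokine interleukin-4 (IL-4) and in 4 untreated libraries. Its members are the loci of the authors' merged annotation that hold a reference transcript with a coding sequence lying inside chr17:34200000-34460000 (mm9). The rule found 12 loci of 19989 coding loci found the same way, and of 31020 loci with counts. They are H2-Oa, Brd2, H2-DMa, H2-DMb1, Tap1, Psmb9, Psmb8, Tap2, H2-Ob, H2-Ab1, H2-Aa and H2-Eb1, in the order of their start positions. The files pair no locus with a gene name, so names were assigned by matching gene lengths and spacings to RefSeq. Not given in the sources used here are the IL-4 dose and duration, the age and sex of the mice and the growth conditions. The series design counts 4 biological replicates in each group. Nothing in the labels ties a replicate to an animal of its own, and the p-values therefore reflect only the spread between these samples, which may in part be technical.

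MHC class II molecules present peptides from engulfed material to CD4+ T cells, and macrophages, dendritic cells and B cells are their main carriers. An alpha chain and a beta chain form the peptide groove, H2-DM helps to load the groove, and H2-O inhibits H2-DM. The same stretch of chromosome holds genes that serve class I presentation, in which the proteasome cuts cytosolic proteins and the Tap transporter carries the fragments into the endoplasmic reticulum. IL-4, a cytokine of helper T cells, acts on macrophages through STAT6 and is known to raise class II on B cells and macrophages.

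The libraries held 23071022 to 27783417 counted reads. Of the macrophage markers, 5 of 8 could be matched to a locus, and their summed level was 1581 to 2293 CPM (read counts scaled to a fixed library total) in IL-4 libraries and 4710 to 5949 CPM in untreated libraries. Of these 5, 4 fell in counts and Csf1r, with 80.8% of its exonic bases shared with another locus, was not called. In FPKM Csf1r had 188 to 210 in IL-4 libraries and 272 to 320 in untreated libraries, and its main isoform fell (log2 fold change -0.55 ± 0.06, limma, adjusted p = 0.000242). All 5 thus fell in one measure or the other; the part this has in the results for the region was not tested. Markers of other class II-bearing cells were at or near 0 in both groups. The 5 matched dendritic cell markers of 9 summed to 0.353 to 0.632 CPM in IL-4 libraries and 0.409 to 1.15 CPM in untreated libraries. The 4 matched B cell markers of 6 summed to 0.130 to 0.261 CPM in IL-4 libraries and 0.491 to 1.503 CPM in untreated libraries, with Ebf1 at 0 counts. The 5 T cell markers summed to 1.57 to 3.56 CPM in IL-4 libraries and 31.6 to 88.6 CPM in untreated libraries, nearly all of it Cd4, while Cd3e had 0 counts. Neutrophil markers, 5 of 6 matched, summed to 12.7 to 15.4 CPM in IL-4 libraries and 11.1 to 20.4 CPM in untreated libraries. Fibroblast markers (3 of 4) and mast cell and basophil markers (3 of 4) stayed under 1 CPM in every library, with Col1a1, Col1a2 and Tpsb2 at 0 counts. The libraries numbered 4 carried 5525 (IL-4) and 5808 (untreated) reads on chromosome Y, against at most 7 in each of the others. Each group was thus mixed in this mark of sex, and fits without both libraries numbered 4 are given below.

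Across the region the response to IL-4 went both ways. The 3 class II chains and both loci of H2-DM rose, the Tap transporter and the immunoproteasome subunits fell, and the inhibitor H2-O had few reads in either group. Of 12 members, 10 had enough counts for edgeR's quasi-likelihood test. Of these, 5 rose, 3 fell and 2 did not pass an adjusted p of 0.05. Over all 13761 tested loci 51.8% changed, 25.6% upward and 26.2% downward, and over the 10797 tested coding loci 54.3% did, 27.3% upward and 27.0% downward. A changed locus was thus common. The median log2 fold change was 0.99 over the tested members, -0.02 over all tested loci and -0.01 over the tested coding loci. The value for the members falls in the gap between Brd2 at 0.17 and H2-DMa at 1.82, and describes no single member. IL-4 and untreated libraries did not overlap for 9 of the 10 tested members, against 48.6% of all tested loci. Leaving out both libraries numbered 1, or both numbered 4, left 6 rises (Brd2 being the added one) and 5 rises, with 3 falls each time.

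**Figure D1:**
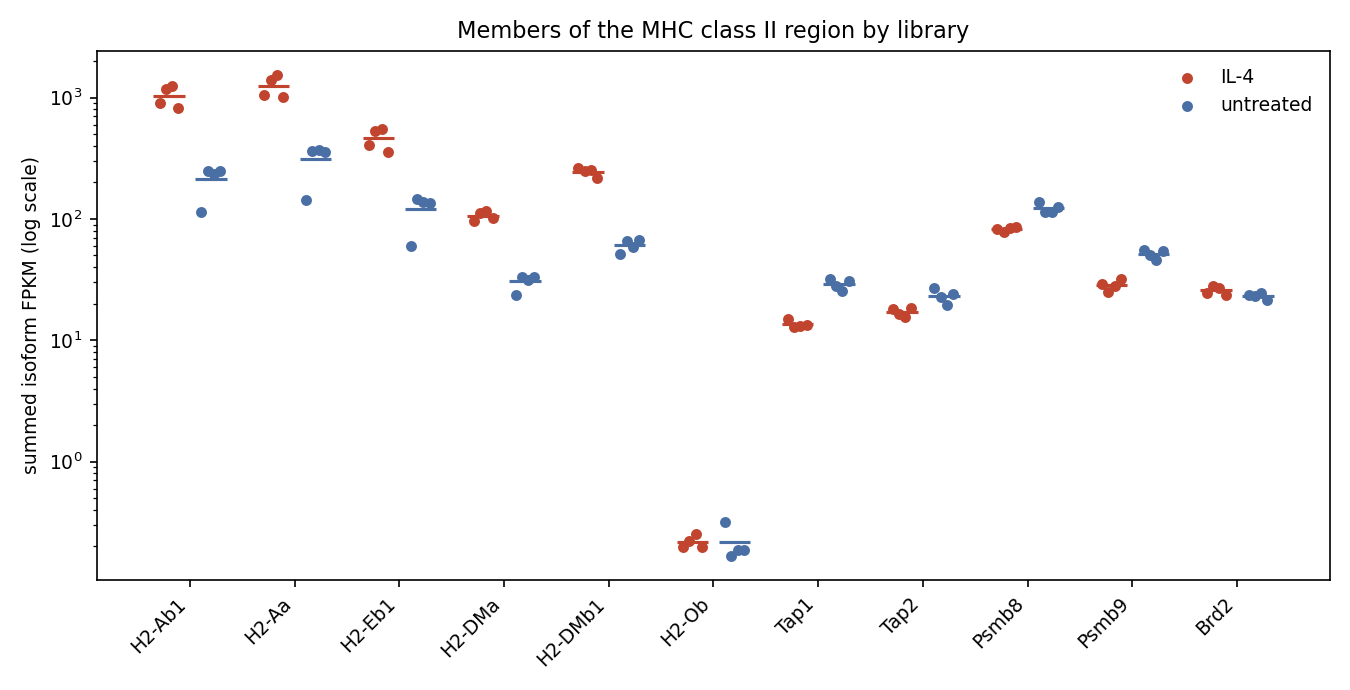
Summed isoform FPKM (fragments per kilobase of transcript scaled to mapped fragments, log axis) of 11 members in each library; points are libraries, bars are group means (n = 4 each), IL-4 in red and untreated in blue. The class II chains and H2-DM lie higher in IL-4 libraries, Tap1, Tap2, Psmb8 and Psmb9 lie lower, and H2-Ob lies under 1 FPKM in both groups; H2-Oa, at 0 in 4 libraries, is not drawn.

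H2-Ab1 (XLOC_011331, chr17:34400172-34406363, plus strand), the beta chain of the class II molecule I-A, showed the largest rise of the region. Its counts, scaled by TMM factors to CPM, were 1513, 1967, 2072 and 1390 in IL-4 replicates 1 to 4, and 186, 405, 373 and 408 in untreated replicates 1 to 4. The lowest IL-4 library lay above the highest untreated library, and untreated replicate 1 lay far under the other 3 untreated libraries. The fitted log2 fold change was 2.34 ± 0.25 (SE, n = 4 each), a 5.06-fold rise, with an adjusted p of 2.8e-05 in edgeR's quasi-likelihood test. In bulk RNA, a change in the number of cells of a type and a change in RNA per cell cannot be told apart.

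H2-Aa (XLOC_012046, chr17:34419696-34424716, minus strand), the alpha chain that pairs with H2-Ab1, had the highest level of the 12 members. It had 1691, 2273, 2479 and 1634 CPM in IL-4 replicates 1 to 4, against 221, 582, 577 and 575 CPM in untreated replicates 1 to 4. The groups were far apart, and untreated replicate 1 was again low while the other 3 untreated libraries lay close together. The rise was 4.13-fold, with a log2 fold change of 2.05 ± 0.30 and an adjusted p of 0.000299 (edgeR).

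H2-Eb1 (XLOC_011332, chr17:34442812-34453619, plus strand) encodes the beta chain of the class II molecule I-E. C57BL/6 mice lack a working gene for its alpha-chain partner, so the protein is not known to reach the surface in this strain, yet the transcript responded. It had 1012, 1289, 1364 and 879 CPM in IL-4 replicates 1 to 4, against 145, 349, 324 and 325 CPM in untreated replicates 1 to 4. The order of the libraries was close to that seen for H2-Aa, and the groups did not overlap. The rise was 3.97-fold, with a log2 fold change of 1.99 ± 0.27 and an adjusted p of 0.000179 (edgeR). Without untreated replicate 1 the log2 fold changes were 2.13 for H2-Ab1, 1.803 for H2-Aa and 1.77 for H2-Eb1, and all 3 were still called. Together the 3 chains took 0.472% ± 0.097 of the counts of IL-4 libraries and 0.116% ± 0.040 of those of untreated libraries (SD, n = 4 each).

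Class II genes are known to share an upstream module of an X box, bound by RFX, and a Y box, bound by NF-Y, on which the coactivator CIITA assembles. Promoters, taken as 250 bases before to 50 after each RefSeq start (GRCm38.p6), were available for 10 of the 12 members; H2-Ab1 and Tap2 were not among them. The sequences of H2-Aa (chr17:34287774-34288073, minus strand), H2-Eb1 (chr17:34305617-34305916, plus strand) and H2-DMb1 (chr17:34152941-34153240, plus strand) are shown because these 3 genes rose together and carry the marked pair of words. That of H2-Ob (chr17:34238655-34238954, plus strand) is shown because it carries the same pair at a gene that averaged under 1 CPM. H2-DMa rose too, but its windows hold no such pair and are not shown. Capitals mark GNAAC, the core of the X box, and GATTGG, the core of the Y box, letters chosen after these sequences had been read.
H2-Aa: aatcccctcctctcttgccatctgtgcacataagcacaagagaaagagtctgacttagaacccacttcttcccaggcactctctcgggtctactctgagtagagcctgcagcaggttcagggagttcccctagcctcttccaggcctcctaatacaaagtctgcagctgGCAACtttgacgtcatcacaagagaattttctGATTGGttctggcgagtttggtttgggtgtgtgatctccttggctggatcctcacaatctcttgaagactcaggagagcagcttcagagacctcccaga
H2-Eb1: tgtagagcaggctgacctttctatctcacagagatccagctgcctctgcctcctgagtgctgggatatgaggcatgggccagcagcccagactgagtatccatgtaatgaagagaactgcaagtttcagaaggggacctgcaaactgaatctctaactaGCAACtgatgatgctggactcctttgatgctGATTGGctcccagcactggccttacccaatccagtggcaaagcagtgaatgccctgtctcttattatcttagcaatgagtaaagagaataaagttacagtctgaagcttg
H2-DMb1: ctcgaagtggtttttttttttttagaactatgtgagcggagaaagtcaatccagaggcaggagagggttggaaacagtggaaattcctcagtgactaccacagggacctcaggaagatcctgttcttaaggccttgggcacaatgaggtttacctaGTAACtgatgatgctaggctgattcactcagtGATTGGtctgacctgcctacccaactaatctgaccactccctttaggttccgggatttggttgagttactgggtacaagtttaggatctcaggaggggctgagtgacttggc
H2-Ob: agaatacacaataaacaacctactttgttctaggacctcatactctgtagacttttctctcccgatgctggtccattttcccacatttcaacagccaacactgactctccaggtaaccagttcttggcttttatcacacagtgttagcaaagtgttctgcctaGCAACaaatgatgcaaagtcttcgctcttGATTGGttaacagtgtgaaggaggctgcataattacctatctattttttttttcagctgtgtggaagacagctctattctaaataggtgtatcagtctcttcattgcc
GATTGG began at position -49 from the start in H2-Aa, -60 in H2-Eb1, -62 in H2-DMb1 and -58 in H2-Ob. Between the marked words lay 27 letters in H2-Aa and H2-DMb1, 26 in H2-Eb1 and 24 in H2-Ob. H2-Oa, which had next to no counts, carried the pair as well, with 27 letters between. GNAAC followed by GATTGG at a spacing of 20 to 40 letters was searched on both strands. It occurred in 1.17% of all 32851 promoter windows and in 5 of the 13 windows of members. These belong to 5 of the 10 members with a window. H2-DMa had the pair in neither of its windows. Whether its windows cover the start of its most abundant isoform was not tested. GATTGG alone, which is part of that pair, occurred in 16.1% of all windows and in 8 of the 13 windows of members, those of 8 members. A match is a description of letters. The pair stood at members that rose and at members with few reads, and was absent from the windows of H2-DMa, which rose.

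H2-DM, the heterodimer that exchanges peptides in the class II groove, rose at both of its loci, with less spread between libraries than the chains. H2-DMa (XLOC_011324, chr17:34259661-34276041, plus strand), its alpha chain, had 230, 266, 274 and 242 CPM in IL-4 replicates 1 to 4, against 56.6, 78.2, 73.6 and 79.1 CPM in untreated replicates 1 to 4. Untreated replicate 1 was lowest here too, by a smaller margin. The log2 fold change was 1.82 ± 0.11, a 3.52-fold rise (adjusted p = 1.6e-07, edgeR). The locus named H2-DMb1 (XLOC_011325, chr17:34280156-34297174, plus strand), the beta chain, had 351, 343, 350 and 287 CPM in IL-4 replicates 1 to 4, against 80.2, 86.2, 74.4 and 88.4 CPM in untreated replicates 1 to 4. IL-4 replicate 4 lay under the other 3, still far above all untreated libraries. The log2 fold change was 2.02 ± 0.08, a 4.04-fold rise (adjusted p = 1.5e-08, edgeR). This locus joins a second group of reference transcripts on its upstream side, where RefSeq has the close copy H2-DMb2, so its value may stand for both beta-chain genes.

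H2-O, the inhibitor of H2-DM, is known mainly from B cells and thymus. Its alpha chain H2-Oa (XLOC_011323, chr17:34229324-34232179, plus strand) had 1 read over the 4 IL-4 libraries and 3 reads over the 4 untreated libraries, too few for a test or a fold. Its beta chain H2-Ob (XLOC_011330, chr17:34375850-34382853, plus strand) had 0.869, 0.931, 0.994 and 0.784 CPM in IL-4 replicates 1 to 4, against 1.27, 0.752, 0.732 and 0.900 CPM in untreated replicates 1 to 4. The groups overlapped, and the log2 fold change of -0.03 ± 0.23 did not pass the test (adjusted p = 0.930, edgeR). H2-Ob was the only one of the 10 tested members whose groups overlapped.

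The class I machinery in the middle of the region went the other way. Tap1 (XLOC_011326, chr17:34318180-34334408, plus strand), a subunit of the peptide transporter, had 42.0, 37.6, 37.2 and 40.6 CPM in IL-4 replicates 1 to 4, against 94.9, 79.5, 71.0 and 84.7 CPM in untreated replicates 1 to 4. The groups were well separated, and untreated replicate 1 was the highest library. The log2 fold change was -1.07 ± 0.09, a level 2.1-fold lower with IL-4 (adjusted p = 2.3e-06, edgeR). Of the exonic bases of this locus 18.3% also lie in other loci, Psmb9 among them, and reads there may have been lost or split in the counting.

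Tap2 (XLOC_011328, chr17:34340646-34353266, plus strand), the partner subunit, had 68.8, 64.2, 59.8 and 71.3 CPM in IL-4 replicates 1 to 4, against 101, 85.0, 72.6 and 90.7 CPM in untreated replicates 1 to 4. The lowest untreated library lay just above the highest IL-4 library. The log2 fold change of -0.40 ± 0.10, a level 1.32-fold lower, passed the test (adjusted p = 0.00505, edgeR) and was smaller in size than that of Tap1.

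Psmb8 (XLOC_011327, chr17:34335140-34338399, plus strand) and Psmb9 (XLOC_012044, chr17:34319044-34324275, minus strand) encode catalytic subunits of the immunoproteasome. Psmb8 had 142, 135, 145 and 149 CPM in IL-4 replicates 1 to 4, against 232, 192, 189 and 215 CPM in untreated replicates 1 to 4. All IL-4 libraries lay under all untreated libraries, and the log2 fold change was -0.53 ± 0.07, a level 1.45-fold lower (adjusted p = 0.00012, edgeR). Psmb9 was listed at 0 counts in every library, and all 806 of its exonic bases lie within exons of the Tap1 locus on the other strand. Its deposited FPKM, which assign reads to transcripts in another way, were 29.1, 25.0, 28.2 and 32.3 in IL-4 replicates 1 to 4, against 55.9, 50.0, 46.2 and 54.8 in untreated replicates 1 to 4. The groups did not overlap, and the log2 fold change on the log2(FPKM + 0.1) scale was -0.85 ± 0.09 (limma, adjusted p = 0.000141). Because both loci cover the same bases, the share of reads given to each of Psmb9 and Tap1 there is uncertain. Tested against a change of 1.5-fold, the fall of Tap1 remained called (adjusted p = 0.000217, edgeR glmTreat) and those of Psmb8 and Tap2 were not called. Against that change 17.9% of all tested loci were called, 9.01% upward and 8.89% downward.

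Tap1 and Psmb9 are known to be transcribed in opposite directions from a shared stretch of promoter. The RefSeq window of Tap1 (chr17:34187306-34187605, plus strand, GRCm38.p6), which overlaps that of Psmb9 (chr17:34187281-34187580, minus strand), is shown because both genes fell. The capitals mark CCAATC, the reverse complement of GATTGG, at position -222.
Tap1: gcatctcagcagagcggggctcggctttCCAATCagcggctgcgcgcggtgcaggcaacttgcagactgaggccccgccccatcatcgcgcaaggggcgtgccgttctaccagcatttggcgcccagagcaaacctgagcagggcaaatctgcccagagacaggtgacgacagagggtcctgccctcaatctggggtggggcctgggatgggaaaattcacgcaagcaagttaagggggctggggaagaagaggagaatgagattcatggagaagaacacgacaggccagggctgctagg
TTCNNNNGAA, the spacing that STAT6 prefers, occurred in 7.0% of all windows and in 0 of the 13 windows of members. GAAANNGAAA, a core of the interferon-stimulated response element, occurred in 3.4% of all windows and in 0 of the 13. Both were searched on both strands, and a window without a match says nothing of more distant sites.

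Brd2 (XLOC_012043, chr17:34248964-34259595, minus strand) lies among the class II genes without being one of them; it encodes a bromodomain protein that binds acetylated histones. It had 191, 217, 209 and 185 CPM in IL-4 replicates 1 to 4, against 182, 179, 184 and 169 CPM in untreated replicates 1 to 4. The lowest IL-4 library and the highest untreated library were nearly level. The log2 fold change of 0.17 ± 0.07 missed the threshold (adjusted p = 0.0552, edgeR), and passed it with the replicate number as a block (adjusted p = 0.029) and in DESeq2 (adjusted p = 0.0225).

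The isoform values told the same directions with a few exceptions. Members had 46 transcripts in the files, of which 19 reached a mean of 1 FPKM in a group. Of these 19, 10 rose and 6 fell in limma on log2(FPKM + 0.1), where 38.4% of all 17500 tested isoforms changed, 19.8% upward and 18.5% downward. Each of H2-Ab1, H2-Eb1, Psmb8, Psmb9 and Tap2 had a single isoform at that level. Relative to the other isoforms of their locus, 2 member isoforms rose and 3 fell of 14 tested, against 10.2% of 11384 tested isoforms that changed in either direction, 4.96% upward and 5.24% downward. These calls lie at H2-DMa, H2-Aa and Brd2. At H2-DMa and H2-Aa, with 2 tested isoforms each, the rise and the fall are the same ratio with its sign turned. They are therefore not separate changes.

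H2-DMa showed the clearest contrast between isoforms. The isoform beginning at chr17:34270380 (TCONS_00033027) had 94.9, 111, 114 and 100 FPKM in IL-4 replicates 1 to 4, against 22.1, 31.9, 29.9 and 32.4 FPKM in untreated replicates 1 to 4. A longer isoform beginning at the upstream edge of the locus (TCONS_00033025) had 1.51, 0.737, 1.73 and 1.81 FPKM in IL-4 replicates 1 to 4, against 1.69, 1.59, 1.64 and 0.964 FPKM in untreated replicates 1 to 4. The first separated the groups and the second did not. The longer isoform made up 1.37% ± 0.49 of the FPKM of the locus in IL-4 libraries and 4.98% ± 1.72 in untreated libraries (SD, n = 4 each), and its ratio to the rest fell (log2 change -1.93 ± 0.37, limma, adjusted p = 0.0146).

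At H2-Aa the full-length isoform made up over 99% of FPKM in both groups. A 3-exon isoform (TCONS_00035176) averaged 3.45 ± 0.69 FPKM in IL-4 libraries and 1.82 ± 0.60 FPKM in untreated libraries (SD, n = 4 each), a smaller rise than that of the locus (log2 fold change 0.93 ± 0.26, limma, adjusted p = 0.0213). This isoform lost its call without IL-4 replicate 1 (0.0567) or 3 (0.0597). It also lost the call with no filter on low values, and without both libraries numbered 1 or both numbered 4 (limma, adjusted p at most 0.0881). Its ratio to the full-length isoform fell (log2 change -1.16 ± 0.21, limma, adjusted p = 0.0124). At the H2-DMb1 locus the main isoform (TCONS_00033036) averaged 205 ± 16.3 FPKM in IL-4 libraries and 51.5 ± 4.05 FPKM in untreated libraries. An assembled isoform that runs on from the upstream transcript group (TCONS_00033033) had 31.0, 30.5, 30.6 and 26.5 FPKM in IL-4 replicates 1 to 4, against 0.625, 7.84, 7.09 and 8.53 FPKM in untreated replicates 1 to 4. Its low value in untreated replicate 1 stood apart; the rise passed the test (log2 fold change 2.77 ± 0.73, limma, adjusted p = 0.0161) but not with no filter on low values (adjusted p = 0.0842). Without untreated replicate 1 the log2 fold change was 1.91, and without both libraries numbered 1 it was 1.89. An assembled Brd2 isoform (TCONS_00035167) averaged 1.18 ± 0.06 FPKM in IL-4 libraries and 1.69 ± 0.29 FPKM in untreated libraries and fell (adjusted p = 0.0329, limma), and its ratio to the other isoforms fell (log2 change -0.74 ± 0.17, adjusted p = 0.0284, limma). Both calls were lost with the replicate block, at adjusted p of 0.0612 for the level and 0.0504 for the ratio. Both were also lost when any 1 of IL-4 replicates 1, 2 and 3 or untreated replicates 2 and 4 was left out, and that for the level when untreated replicate 1 was, at adjusted p of 0.0528 to 0.0909.

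The members differed in how steady they were between libraries of a group. The coefficient of variation of CPM was 19.3% to 20.9% in IL-4 libraries and 30.9% to 36.5% in untreated libraries for the 3 class II chains. It was 8.11% in IL-4 libraries and 14.5% in untreated libraries for H2-DMa. It was 5.83% in IL-4 libraries and 12.1% in untreated libraries for Tap1. Most of the untreated spread of the chains came with replicate 1, at 0.89 (H2-Ab1), 1.14 (H2-Aa) and 0.98 (H2-Eb1) log2 units under the group mean. Within pairs of libraries of the same number, the ratio of IL-4 to untreated CPM was highest in pair 1 for these chains, at 8.15 for H2-Ab1, 7.63 for H2-Aa and 6.99 for H2-Eb1. It was lowest in pair 4, at 3.41, 2.84 and 2.70 for the same genes, and above 1 in all pairs. Pair 4 is also the pair set apart by its chromosome Y reads, and a part of sex in these ratios was not tested. For Tap1 the pair ratios ran from 0.442 to 0.525, with the lowest in pair 1.

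**Figure D2:**
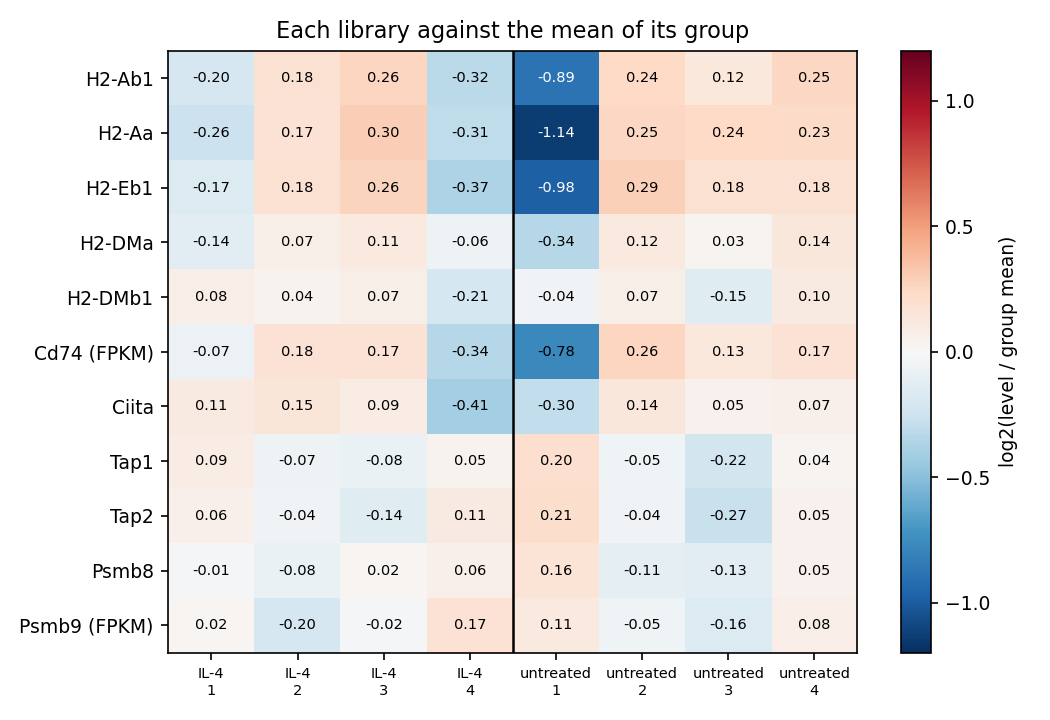
Level of 11 genes in each library relative to the mean of its own group, as log2(level / group mean), from CPM or, where marked, FPKM; IL-4 libraries stand left of untreated libraries (n = 4 each). Untreated replicate 1 is low for the class II chains and Cd74, at -0.78 to -1.14, and slightly high for Tap1, Tap2, Psmb8 and Psmb9, at 0.11 to 0.21.

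After the group means were taken out of log2 CPM, the 3 class II chains followed each other closely over the 8 libraries, with Pearson's r of 0.99 for each pair. H2-DMa followed them too, with r of 0.96 to 0.98, and H2-DMb1 less, with r of 0.30 to 0.41. Tap1 followed Tap2 (r = 0.96) and Psmb8 (r = 0.84), and ran opposite to the chains, with r of -0.77 to -0.83. These values describe 8 libraries, and share each library's depth and scaling. Without untreated replicate 1 the chains still followed each other (r of 0.97 to 0.98, 7 libraries), while r of Tap1 with them was -0.41 to -0.60. In the same 7 libraries r with the chains was 0.81 to 0.90 for H2-DMa and 0.46 to 0.64 for H2-DMb1, a smaller contrast. There r of Tap1 was 0.94 with Tap2 and 0.65 with Psmb8. The 5 coding loci outside the region most like H2-Aa, of 10787 compared, had r of 0.991 to 0.996 with untreated replicate 1 included. Among untreated libraries all 5, like H2-Aa, were lowest in replicate 1, so the ranking may rest in part on that library. They were Atad2b, Nepro, Cnot11 and 2 loci without a name. Their own responses to IL-4 differed, with a log2 fold change of 0.34 ± 0.12 for Atad2b (adjusted p = 0.0357, edgeR) and -0.56 ± 0.12 for Cnot11 (adjusted p = 0.00204, edgeR). A locus without a name (XLOC_002575) fell (-0.50 ± 0.12, adjusted p = 0.00524, edgeR), and Nepro and the other nameless locus (XLOC_007764) were not called.

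Ratios between members that work together differed between the groups. In FPKM, which are scaled to transcript length, H2-Aa over H2-Ab1 was 1.202 ± 0.038 in IL-4 libraries and 1.43 ± 0.14 in untreated libraries (SD, n = 4 each). H2-Eb1 over H2-Ab1, the beta chains of different class II molecules, was 0.445 ± 0.008 in IL-4 libraries and 0.560 ± 0.032 in untreated libraries. In both, all IL-4 libraries lay under all untreated libraries. Tap1 over Tap2 was 0.793 ± 0.058 in IL-4 libraries and 1.25 ± 0.04 in untreated libraries, so that in FPKM Tap1 was the higher of the pair without IL-4 and the lower with it. In CPM, which are not scaled to length, Tap1 lay under Tap2 in every library of both groups. Since 18.3% of the exonic bases of Tap1 also lie in other loci, the order without IL-4 is uncertain. Psmb9 over Psmb8, which sit in the same proteasome, was 0.346 ± 0.023 in IL-4 libraries and 0.419 ± 0.018 in untreated libraries. H2-Ab1 over H2-DMa, a class II chain over a chain of its loading factor, was 9.65 ± 1.23 in IL-4 libraries and 6.79 ± 1.33 in untreated libraries. These ratios were compared by their ranges only, and none of the 5 overlapped between the groups. Ratios of other gene pairs were not formed, so that count has no background share beside it. For the CPM of single loci, 48.6% of all tested loci did not overlap. The gap was small for H2-Aa over H2-Ab1, from 1.235 in the highest IL-4 library to 1.253 in the lowest untreated library.

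The response of the class II genes was large beside that of their neighbours on the lower side. The window of equal length on the lower side held 16 coding loci, which all passed the count filter. Of these, 4 rose and 8 fell, where 54.3% of all tested coding loci changed. None exceeded 0.78 in size, and their median log2 fold change was -0.23. On the upper side 1 of 10 loci had enough counts, and it was not called. It was matched to Gpsm3 and Notch4, starts inside the window and averaged 0.289 CPM in IL-4 libraries and 0.442 CPM in untreated libraries. The upper side thus gave no tested neighbour lying wholly outside the window. The nearest coding loci on the lower side were Rxrb, a retinoid X receptor gene, with a log2 fold change of -0.32 ± 0.07 (adjusted p = 0.00449, edgeR), and a locus without a name (XLOC_011322), with -0.56 ± 0.22 (adjusted p = 0.0499). On the upper side, H2-Eb2, a relative of H2-Eb1, averaged 0.0324 CPM in IL-4 libraries and 0.0866 CPM in untreated libraries, and the next locus had 0 counts. The classical class I gene H2-K1, on the lower side, is given with its pathway. Among all 13761 tested loci the 5 rising members lay within the highest 4.36% by log2 fold change, and Tap1 within the lowest 7.26%.

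**Figure D3:**
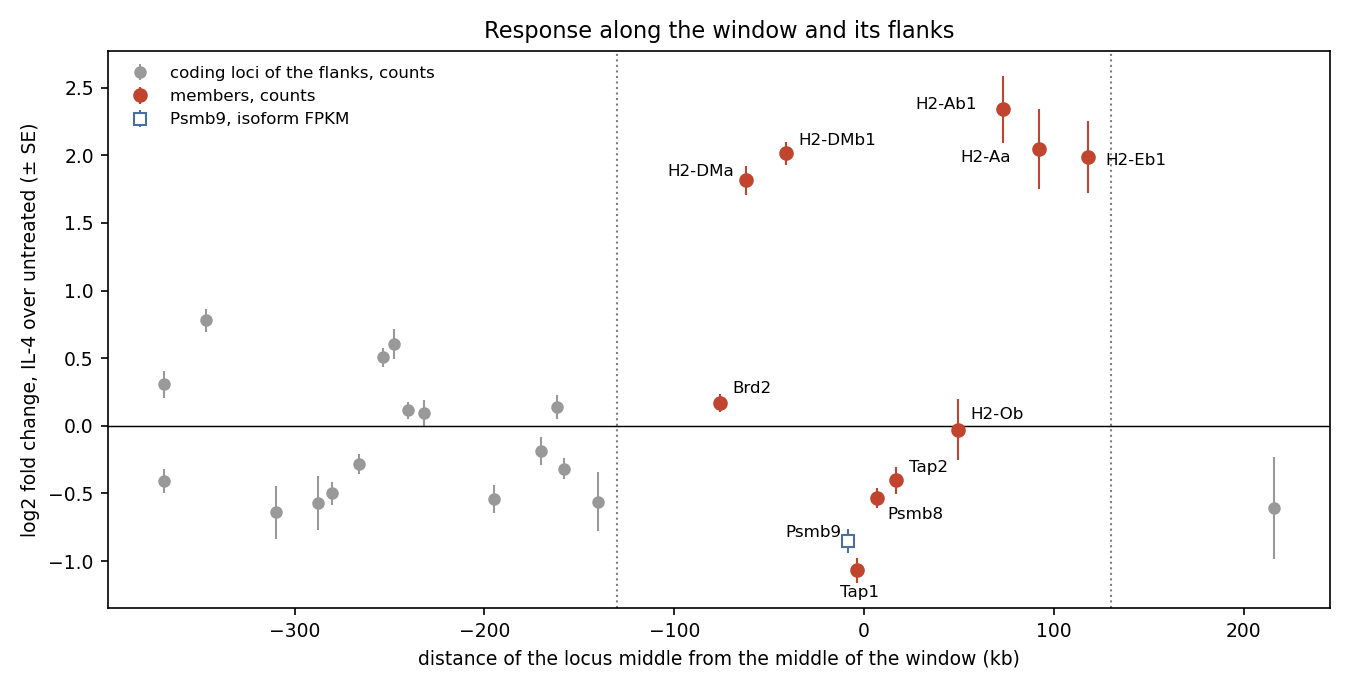
Log2 fold change (IL-4 over untreated, ± SE, n = 4 each) of each tested coding locus against the distance in kb of its middle from the middle of the window, whose edges are dotted lines; members in red from counts, Psmb9 as an open square from FPKM, flanking loci in grey. The chains and H2-DM stand at 1.82 to 2.34 on either side of the falling Tap and Psmb genes, and no flanking locus exceeds 0.78 in size.

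Genes that act with the members but lie elsewhere were read from lists of the class II and class I pathways. Of the class II list, 24 of 28 genes could be matched, 7 of them members. Of the 15 others with enough counts, 4 rose, 1 fell and 10 were not called, with a median log2 fold change of 0.03. Beside this, 51.8% of all tested loci changed. By CPM, in which Cd74 is at 0, the list's 3 most abundant genes are lysosomal proteases. Ctsb averaged 17579 ± 1815 CPM in IL-4 libraries and 15624 ± 1533 CPM in untreated libraries (SD, n = 4 each) and was not called (adjusted p = 0.18, edgeR); 83.6% of its exonic bases are shared with another locus. Ctss, which trims the invariant chain, averaged 13892 ± 463 CPM in IL-4 libraries and 9066 ± 1416 CPM in untreated libraries and rose (log2 fold change 0.62 ± 0.11, adjusted p = 0.000543, edgeR). Ctsd averaged 11074 ± 2562 CPM in IL-4 libraries and 14680 ± 2135 CPM in untreated libraries and fell (log2 fold change -0.41 ± 0.15, adjusted p = 0.0465, edgeR). Its groups overlapped in CPM and in FPKM, and its main isoform was not called (log2 fold change -0.46 ± 0.17, limma, adjusted p = 0.0607). The other 3 that rose in counts were Ciita, Cd9 and Marchf1. Cd63, among the 10 not called, has 80.7% of its exonic bases shared with another locus. It averaged 0.939 CPM in IL-4 libraries and 1.08 CPM in untreated libraries. In FPKM it had 109 to 131 in IL-4 libraries and 90.8 to 103.7 in untreated libraries, and its main isoform rose (log2 fold change 0.335 ± 0.069, limma, adjusted p = 0.00488).

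Ciita and Cd74 were singled out after their values had been seen. Ciita, the coactivator that class II transcription depends on, had 324, 332, 319 and 226 CPM in IL-4 replicates 1 to 4, against 76.5, 103, 97.5 and 98.3 CPM in untreated replicates 1 to 4. IL-4 replicate 4 and untreated replicate 1 were the lowest of their groups, as they were for the 3 chains. The log2 fold change was 1.68 ± 0.13, a 3.20-fold rise (adjusted p = 1.8e-06, edgeR). Cd74, the invariant chain that escorts new class II molecules, was listed at 0 counts, and all of its exonic bases are shared with another locus. In FPKM it had 3053, 3629, 3625 and 2540 in IL-4 replicates 1 to 4, against 394, 810, 737 and 760 in untreated replicates 1 to 4. Untreated replicate 1 was low as for the chains, and the main isoform rose by 2.27 ± 0.22 on the log2 scale (limma, adjusted p = 7.2e-05). The subunits of RFX and NF-Y that could be tested, Rfx5, Rfxank, Rfxap, Nfyb and Nfyc, had log2 fold changes between -0.23 and 0.03, and none was called from counts in edgeR. In FPKM the main isoform of Nfyc was called (log2 fold change 0.51 ± 0.16, limma, adjusted p = 0.0364), with 3.81 to 4.45 FPKM for the gene in IL-4 libraries and 3.15 to 3.75 FPKM in untreated libraries. Rfx5 and Rfxank share 62.4% and 48.1% of their exonic bases with other loci, so their counts may be incomplete.

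Of the class I list, 17 of 24 genes could be matched, 4 of them members. Of the 12 others with enough counts, 5 rose and 7 fell, around a median of -0.39 on the log2 scale. The share of all tested loci that changed was 51.8%. B2m, the light chain of class I molecules, averaged 1908 ± 144 CPM in IL-4 libraries and 2544 ± 242 CPM in untreated libraries and fell (log2 fold change -0.41 ± 0.09, adjusted p = 0.00191, edgeR). H2-K1, a class I heavy chain, averaged 1357 ± 144 CPM in IL-4 libraries and 1976 ± 250 CPM in untreated libraries and fell (log2 fold change -0.54 ± 0.11, adjusted p = 0.00119, edgeR). Psmb6, the third of the list by level, is the standard proteasome subunit whose place Psmb9 takes. It averaged 342 ± 14.3 CPM in IL-4 libraries and 260 ± 26.4 CPM in untreated libraries and rose (log2 fold change 0.40 ± 0.08, adjusted p = 0.00111, edgeR).

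The other catalytic subunits of the proteasome, which lie outside the region, were looked at after their values were known. Psmb5, the standard subunit whose place Psmb8 takes, rose, with a log2 fold change of 0.70 ± 0.10 (adjusted p = 0.000166, edgeR). Psmb7, with 51.7% of its exonic bases shared with another locus, rose in counts by 0.21 ± 0.07 on the log2 scale (adjusted p = 0.0217, edgeR). In FPKM its groups overlapped, and its main isoform was not called (log2 fold change 0.136 ± 0.075, limma, adjusted p = 0.19). Psmb10, the immunoproteasome subunit that takes the place of Psmb7, rose by 0.56 ± 0.06 (adjusted p = 2.1e-05, edgeR). Of the 3 immunoproteasome subunits, Psmb8 and Psmb9 of the class II region fell and Psmb10, which lies outside it, rose. Nlrc5, the class I coactivator related to Ciita, averaged 27.7 ± 0.85 CPM in IL-4 libraries and 64.7 ± 6.16 CPM in untreated libraries and fell, with a log2 fold change of -1.22 ± 0.08 (adjusted p = 2.4e-07, edgeR).

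**Figure D4:**
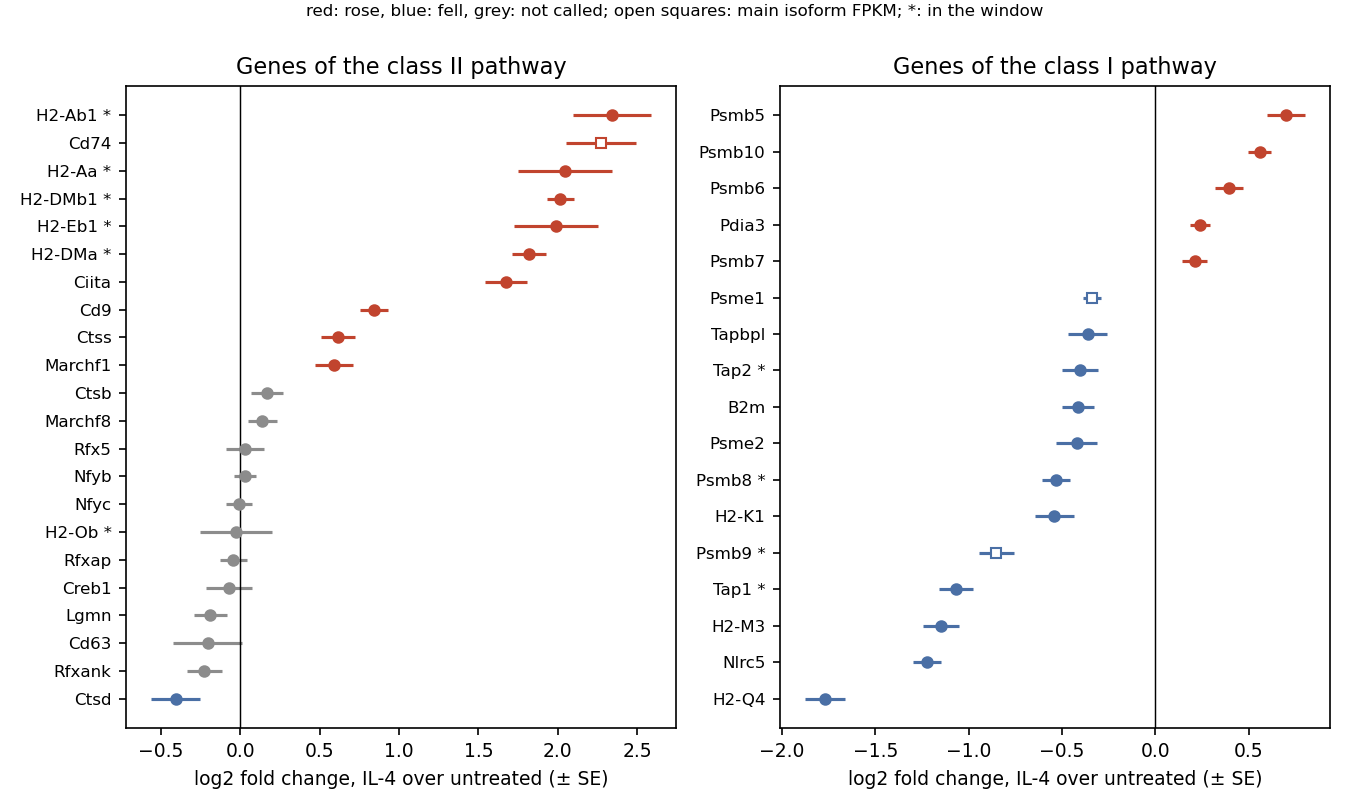
Log2 fold change (IL-4 over untreated, ± SE, n = 4 each) of the class II and class I pathway genes that could be tested; red rose, blue fell, grey was not called, open squares are the main isoform in FPKM and asterisks mark members of the region. The class II panel is led by H2-Ab1 at 2.34 and Cd74 at 2.27, and in the class I panel the rises are the proteasome subunits Psmb5, Psmb10, Psmb6 and Psmb7, and Pdia3.

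Regulators of the interferon response, which is known to drive Tap1, Psmb8 and Psmb9, were counted the same way. Of 14 listed genes 11 could be matched and tested in counts. Over all tested loci 51.8% changed, and a difference of the list from that share was not tested. Of the 11, 2 rose, 4 fell and 5 were not called (edgeR). Among those 5 is Irf7, a transcription factor of the interferon response, with 77.2% of its exonic bases shared with another locus and under 1 CPM on average in both groups. In FPKM Irf7 had 0.778, 0.527, 0.564 and 1.22 in IL-4 replicates 1 to 4, against 23.5, 18.5, 14.1 and 39.5 in untreated replicates 1 to 4. The groups were far apart, and its main isoform fell by 4.84 ± 0.44 on the log2(FPKM + 0.1) scale (limma, adjusted p = 5.3e-05), the largest fall of the list. Of the 3 most abundant, the kinase Jak1 averaged 321 ± 12.4 CPM in IL-4 libraries and 295 ± 5.28 CPM in untreated libraries and was not called (adjusted p = 0.0894, edgeR). Ifngr1, a receptor chain for interferon gamma, averaged 213 ± 17.2 CPM in IL-4 libraries and 292 ± 25.2 CPM in untreated libraries and fell (log2 fold change -0.46 ± 0.08, adjusted p = 0.00058, edgeR). Ifnar1, a receptor chain for type I interferon, was not called from counts, with a log2 fold change of -0.05 ± 0.05 (adjusted p = 0.443, edgeR), while its main isoform fell in FPKM (-0.17, limma, adjusted p = 0.0352). The others that fell in counts were Stat2, Irf1 and Irf8, and those that rose were Jak2 and Socs1, an inhibitor of cytokine signalling.

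Costimulatory genes, which act beside class II on the same T cells, were less abundant. Of 9 listed genes 7 were matched and 6 tested in counts. Of these 6, 1 rose, 3 fell and 2 were not called, where 51.8% of all tested loci changed. Cd274, with 99.2% of its exonic bases shared, had too few counts and rose in FPKM (log2 fold change 0.30 ± 0.10 of its main isoform, limma, adjusted p = 0.0438). Pdcd1lg2, a ligand of the inhibitory receptor PD-1, averaged 38.7 ± 3.36 CPM in IL-4 libraries and 0.622 ± 0.297 CPM in untreated libraries and rose (log2 fold change 5.96 ± 0.20, adjusted p = 3.5e-09, edgeR). Cd40 was not called, with 15.9 ± 3.41 CPM in IL-4 libraries and 13.3 ± 2.81 CPM in untreated libraries (adjusted p = 0.235, edgeR). Cd86, a ligand of CD28, averaged 5.53 ± 1.201 CPM in IL-4 libraries and 11.01 ± 0.87 CPM in untreated libraries and fell (log2 fold change -0.996 ± 0.144, adjusted p = 0.000151, edgeR).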

How the data were processed

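RNA was measured in 4 libraries from IL-4-treated and 4 from untreated bone marrow-derived macrophages, depleted of ribosomal RNA per the labels' protocols. Per the submitters' processing notes, build mm9 was used with TopHat2 2.0.9, Cufflinks 2.1.1, HTSeq and CASAVA 1.8.2; the handling of strand and shared reads was not given in the sources used here. Deposited by the authors were counts (whole numbers) per merged locus and FPKM per transcript; the depth behind an FPKM value is unknown, and 0 value columns were left unmatched.

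Loci were named by gene length (within 10 nt) and spacing to neighbours (within 100 nt) in RefSeq GRCm38.p6, with no coordinate converted: 83.3% of coding loci got a name. Counts were tested with edgeR 4.0.16 (R 4.3.3; TMM, default filter, quasi-likelihood, two-sided, Benjamini-Hochberg over 13761 loci, threshold 0.05), and FPKM with limma 3.58.1 on log2(FPKM + 0.1) for isoforms at 1 FPKM or more in at least 4 libraries, a scale that understates changes of low isoforms. Isoform shares were tested as the log2 ratio of an isoform to the rest of its locus. The procedures were tested on simulated data. Alternatives were other scalings, filters and pseudocounts, DESeq2 1.42.0, a test against 1.5-fold, the replicate block and left-out libraries; leaving out both libraries numbered 1 was added after the data were seen.

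Members and gene lists were chosen with earlier results of these data known. Every member was named, with the nearest 2 loci outside each edge, the 5 loci most like H2-Aa and the 3 most abundant of each pathway list. Same-numbered libraries deviated together from their group means (r of 0.37, 0.141, 0.211 and 0.169 over tested loci, all above 0.1), so by that criterion the numbers were taken to pair the libraries. The chromosome Y reads, high only in the libraries numbered 4 of both groups, go with this pairing but were not part of the criterion. The main tests nevertheless compared the groups without this pairing, and the replicate block, which uses it, was run only as an alternative. The pairing was not clean: IL-4 replicate 2 correlated more with untreated replicate 3 (0.247), and IL-4 replicate 3 with untreated replicate 2 (0.123) and IL-4 replicate 4 with untreated replicate 1 (0.118) also passed 0.1.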

Additional observations from a re-analysis of the deposited data

Results flagged for a closer look

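Of 22 groups of 4 libraries tested, 4 held a library far from the other 3 by Dixon's criterion, where chance marks about 1 in 20. H2-DMb1 in IL-4 replicate 4, at 287 CPM, was the lowest of its group. Untreated replicate 1 was the lowest of its group for H2-Ab1 at 186 CPM, for H2-Aa at 221 CPM and for H2-Eb1 at 145 CPM. The last 3 values come from the same library, and the 3 genes varied together across the libraries.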

How the results depend on the processing

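Across the alternatives no member changed direction past the threshold. The 8 called members kept their calls, except that Psmb8 and Tap2 were not called against a change of 1.5-fold, which left 1 fall in place of 3; the 5 rises held there. With the replicate block 6 members rose and 3 fell. The block added Brd2 and changed the call of no other member locus. For the chains the adjusted p was higher with the block (edgeR), at 0.000347 for H2-Ab1, 0.00196 for H2-Aa and 0.0019 for H2-Eb1. It was lower with the block for H2-DMa, H2-DMb1, Tap1, Psmb8 and Tap2. Brd2 (log2 fold change 0.17) was also called with RLE factors, in DESeq2 and in several fits with fewer libraries. Its log2 fold change ran from 0.14 to 0.22 over the alternatives. That of H2-Aa ran from 1.803 to 2.206, that of H2-Ab1 from 2.13 to 2.51 and that of H2-Eb1 from 1.77 to 2.15. With a pseudocount of 1 FPKM, 6 isoform shares fell in place of 3. Of the values for single genes and isoforms, 574 kept their side of the threshold, 34 lost the call and 11 gained it; the cause was not tested. Each group has 4 libraries, loci that share exons lose counts, and H2-Oa is too shallow to test.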
